A study of Rattus norvegicus with 8 samples.

Results

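The genes of the oxidative phosphorylation system were followed in thoracic spinal cord of rats with a spinal cord injury (SCI) and of sham-operated rats. Members were the probe sets with exactly 1 gene symbol that began with Nduf followed by a, b, c, s or v, that was Sdha, Sdhb, Sdhc or Sdhd, or that began with Uqcr, Atp5 or Cox and a digit from 4 to 8. Where a symbol had several probe sets, the one with the highest mean over the 8 arrays was kept, which left 100 members from 106 probe sets, of 18166 genes tested in all. The members were 47 genes of complex I, 4 of complex II, 9 of complex III, 20 of complex IV and 20 of complex V. By function they held 66 structural subunits, 7 isoforms or paralogues that are mainly expressed in particular tissues, 9 assembly or supercomplex factors, the ATPase inhibitor Atp5if1 and 17 loci whose symbols mark them as pseudogenes or copies. A further 8 probe sets carried several symbols and were left out, among them those that include Atp5f1c, Cox7a2, Ndufa3 and Ndufa10. Cox7a1 and Atp5mc2 were not analysed here.

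The animals were male rats of the Long Evans strain, about 175 days old and 400 g in weight, with either a thoracic SCI or a laminectomy alone (sham), and each group has 4 arrays. Surgery was followed by 4 weeks of recovery, after which the rats of both groups ate a fat-rich diet (40% fat, 46% carbohydrate, 15% protein). This diet is shared and is not compared. A chow (17% fat, 54% carbohydrate, 29% protein) is also described in the labels, with the same entry for all 8 arrays. The labels speak of 10 rats and of 8 weeks in total, without saying whether these weeks count the diet alone. The sampled segments are thoracic 10 to 11 by 1 label and 11 to 12 by another, with a lesion level not given in the sources used here. Labelled RNA was hybridised to Affymetrix Rat Gene 2.0 ST arrays, and the signal is on the log2 scale, on which a difference of 1 is a doubling. The labels call each array a separate sample but name no animal, so the p-values measure the spread between these samples, which may be technical in part.

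Oxidative phosphorylation takes place in the inner mitochondrial membrane. Complex I oxidises NADH and complex II oxidises succinate, both pass electrons to ubiquinone, complex III hands them on to cytochrome c, and complex IV reduces oxygen. Complexes I, III and IV pump protons, and complex V, the ATP synthase, uses the proton gradient to make ATP. Neurons of the brain and spinal cord depend heavily on this pathway for ion pumping and synaptic transmission. Nuclear genes encode most subunits, and the mitochondrial genome encodes the rest.

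The nuclear subunit genes had lower signal in SCI than in sham cord, in small steps spread over complexes I, III, IV and V, while complex II overlapped between the groups. Over the 66 structural subunits the mean log2 signal was 7.27, 7.19, 7.24 and 7.32 in SCI arrays 1 to 4 and 7.51, 7.46, 7.47 and 7.51 in sham arrays 1 to 4. Every SCI array lay below every sham array. RNA came from whole cord, so fewer cells of a type and less RNA per cell cannot be told apart. Of the 100 members, 16 fell at an adjusted p under 0.05 (limma, adjusted over all genes tested), a share of 16.0% where 7.06% of all genes fell. None of the 100 rose, where 7.1% of all genes rose. At an unadjusted limma p under 0.05, 37 members were lower and 4 higher, where 14.2% of all genes were lower and 12.5% higher. The groups did not overlap for 33 members, all lower in SCI, where 10.9% of all genes lay wholly below sham and 9.36% wholly above it.

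The median difference (SCI minus sham, log2) was -0.19 over the 100 members and -0.01 over all genes tested, and 80 members had a difference below 0 (80.0%, against 52.1% of all genes). Brighter genes were called more often in general, in both directions. Among genes whose mean level was above the median of all genes (4.74), 12.5% fell. Of the 75 members above that level 14 fell (18.7%), with a median of -0.20 against -0.04 for all such genes. Wholly below sham lay 40.0% of these 75 members and 19.1% of all such genes. Of the 25 members at or below that level, 2 fell (8.0%), Ndufs6 and Ndufaf2, and the median was -0.06. Of all 9083 genes at or below it, 143 fell (1.6%) and 329 rose, with a median of 0.02. The 16 falls came from 14 structural subunits and 2 assembly factors of complex I. None of the 17 copy loci and none of the 7 tissue-restricted forms passed the test in either direction. Most of these loci and forms were at or below the median level, where few genes of any kind were called.

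**Figure D1:**
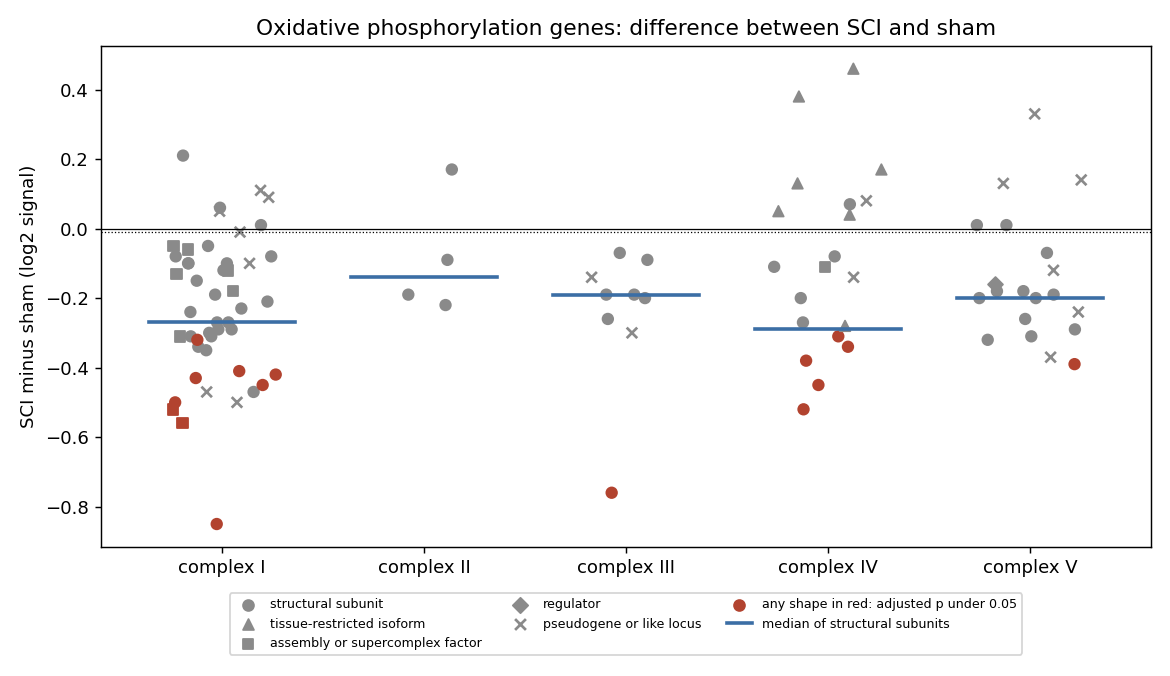
Difference in mean log2 signal between SCI and sham (y axis) for each of the 100 members, by complex (x axis; points are spread sideways for visibility). Shapes give the kind of gene, red marks the 16 members with an adjusted p under 0.05, blue lines are medians of the structural subunits, and the dotted line is the median of all genes, -0.01. The red points lie in complexes I, III, IV and V and none is above 0.

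The calls depended on single arrays more than the direction did. Leaving out 1 array at a time left between 4 (without SCI 2) and 17 (without SCI 4) members called lower, and 77 to 80 of the 80 differences below 0 kept that sign. Without SCI 2, 4.0% of members and 4.29% of all genes were called lower, so the members' share was then no larger than the background. The counts were 7 without SCI 1 (against 5.03% of all genes), 10 without SCI 3 (5.25%) and 10 without sham 1 (5.42%). They were 11 without sham 2 (5.52%), 8 without sham 3 (5.22%) and 5 without sham 4 (4.61%). The share without sham 4 was thus also near the background. In 4 genes the call was kept with each of the 8 arrays left out in turn, namely Ndufv2, Ndufaf5, Ndufb9 and Cox7c. Sample titles carry a number, 4, 6, 7 and 8 in SCI and 5, 9, 10 and 11 in sham, and with that number as a covariate 0 members were called lower while 2.99% of all genes still were, so the members' share was below the background. In that fit 85 differences were below 0 and the median standard error was 0.14, against 0.11 without the covariate.

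The promoters of several members are shown because the subunit genes lay lower together, and because binding motifs of factors that drive respiratory genes are known from their upstream regions. The sequences are from RefSeq, build GRCr8, and run 5′ to 3′ on the gene's strand over the 200 bases before the annotated start. Capitals mark a motif found in that stretch. Cox5b (chr9:46417637-46417836, plus strand) and Ndufs1 (chr9:72073606-72073805, minus strand) fell and hold the ETS motif, with its first base 14 and 199 bases before the start. Ndufv2 (chr9:113157521-113157720, minus strand), with the smallest p of all members, and Cox6a2 (chr1:192219717-192219916, minus strand), the muscle form of a complex IV subunit, hold none of the motifs searched in these stretches.
Cox5b: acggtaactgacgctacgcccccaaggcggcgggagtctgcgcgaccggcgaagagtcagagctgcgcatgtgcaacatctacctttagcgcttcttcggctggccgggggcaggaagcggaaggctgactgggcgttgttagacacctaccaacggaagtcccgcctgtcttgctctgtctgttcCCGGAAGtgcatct
Ndufs1: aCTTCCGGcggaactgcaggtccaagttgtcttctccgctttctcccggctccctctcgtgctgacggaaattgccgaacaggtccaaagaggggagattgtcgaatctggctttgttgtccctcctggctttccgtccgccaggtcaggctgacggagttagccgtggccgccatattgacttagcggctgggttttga
Ndufv2: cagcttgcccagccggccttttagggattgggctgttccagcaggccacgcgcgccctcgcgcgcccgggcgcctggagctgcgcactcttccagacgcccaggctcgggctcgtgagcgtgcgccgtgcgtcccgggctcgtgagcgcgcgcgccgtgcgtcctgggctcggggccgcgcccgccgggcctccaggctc
Cox6a2: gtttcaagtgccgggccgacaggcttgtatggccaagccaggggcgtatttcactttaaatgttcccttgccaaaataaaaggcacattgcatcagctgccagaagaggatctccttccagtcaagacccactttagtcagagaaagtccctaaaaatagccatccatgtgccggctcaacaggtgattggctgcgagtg

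Over windows from 250 bases before to 50 after the start, 81 members and 59 structural subunits had an entry, beside 13757 of the genes tested. Motifs were searched on both strands, as GCGCATGC for nuclear respiratory factor 1 (NRF1), CCGGAAG for the ETS family that includes Gabpa, AAGATGGC for YY1 and AAGGTCA for the oestrogen-related receptors (ERR), and none of these strings contains another. The ETS string was in 32.2% of subunit promoters (19 of 59) and 12.6% of all promoters. The YY1 string was in 23.7% (14 of 59) against 4.19%, the ERR string in 16.9% (10 of 59) against 3.34%, and the NRF1 string in 11.9% (7 of 59) against 3.7%. Among the 11 called subunits with an entry the counts were 2 for ETS, 2 for YY1, 2 for ERR and 0 for NRF1, and among the 48 not called they were 17, 12, 8 and 7. Base composition differed as well, with a median of 20 CG pairs in subunit windows and 15 in all windows, and its part in these shares was not tested. Over the 200 printed bases, a shorter stretch than these windows, Cox6a2 holds 5 CG pairs and Ndufv2 30. A match is a string of letters and not evidence of binding.

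Complex I is the entry point for electrons from NADH and the largest complex of the chain, with a peripheral arm that carries the redox centres and a membrane arm that pumps protons. Of its 47 members 9 fell (19.1%, against 7.06% of all genes and 12.5% of genes above the median level), and the median difference was -0.23. Of its 32 subunits 7 fell (21.9%), with a median of -0.27, and 29 differences were below 0. The subunit means were 6.85, 6.78, 6.86 and 6.92 in the SCI arrays and 7.14, 7.08, 7.06 and 7.12 in the sham arrays, with no overlap. With 1 array left out the count of subunits called lower ran from 2 (without SCI 1 or SCI 2) to 8 (without SCI 4). It was 4 without SCI 3 or sham 3 and 3 without sham 4. Of all genes 5.03% were called lower without SCI 1, 4.29% without SCI 2 and 7.06% without SCI 4. The 2 of 32 subunits called without SCI 1 or SCI 2 were thus near the background. By part of the enzyme, the medians were -0.21 for the 6 catalytic core subunits (2 fell; from -0.50 to -0.10), -0.24 for the 9 accessory subunits of the peripheral arm (2 fell; from -0.85 to 0.06) and -0.27 for the 17 of the membrane arm (3 fell; from -0.43 to 0.21). Differences between the parts were not tested.

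In the core, Ndufv2, a subunit of the NADH-oxidising tip that holds an iron-sulphur cluster, had a log2 signal of 8.36, 8.16, 8.26 and 8.18 in SCI arrays 1 to 4 and 8.63, 8.63, 8.92 and 8.78 in sham arrays 1 to 4. The highest SCI array was below the lowest sham array, and the difference was -0.50 ± 0.10 (SE, n = 4 and 4, adjusted p = 0.0084), a signal of 70.7% of sham. Ndufs1, the large subunit that carries several iron-sulphur clusters of the same tip, measured 7.44, 7.33, 7.69 and 7.31 in SCI and 7.91, 7.75, 7.96 and 7.93 in sham. SCI 3 came close to sham 2 without reaching it, and Ndufs1 fell by 0.45 ± 0.11 (SE, adjusted p = 0.021). Ndufv1, which binds NADH and the flavin beside them, did not pass the test and overlapped between the groups (-0.12 ± 0.10, adjusted p = 0.47). The quinone-side core subunits Ndufs7 (-0.10, adjusted p = 0.61) and Ndufs8 (-0.10, adjusted p = 0.56) did not pass it either, nor did Ndufs3 (-0.29, adjusted p = 0.30).

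Among the accessory subunits, Ndufs6, a zinc-binding protein of the peripheral arm, had the lowest difference of all 100 members. Its signal was 3.71, 3.85, 4.10 and 4.55 in SCI and 5.40, 4.81, 4.72 and 4.67 in sham, both groups spread widely and the gap between them narrow. It fell by 0.85 ± 0.20 (SE, adjusted p = 0.019). The locus named as its pseudogene, Ndufs6-ps1, measured -0.47 (adjusted p = 0.054), and signal shared between the gene and this copy cannot be separated here. Ndufb9, of the membrane arm, measured 8.95, 8.72, 8.88 and 9.02 in SCI and a tight 9.26, 9.32, 9.35 and 9.35 in sham, and fell by 0.43 ± 0.09 (SE, adjusted p = 0.012). Ndufb3, of the same arm, measured 7.98, 7.98, 8.02 and 8.25 in SCI and 8.35, 8.44, 8.49 and 8.58 in sham. It fell by 0.41 ± 0.10 (SE, adjusted p = 0.021), and its other probe set differed by -0.34. Ndufa8, a subunit on the outer face of the membrane arm, fell by 0.42 (adjusted p = 0.029), and Ndufs4, which is needed for a stable peripheral arm, fell by 0.32 (adjusted p = 0.046).

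A further 8 complex I subunits lay wholly below sham without passing the test: Ndufb5, Ndufb6, Ndufb8, Ndufc1, Ndufa6, Ndufb4, Ndufa5 and Ndufa9. Their differences ran from -0.35 for Ndufb5 (adjusted p = 0.060) to -0.23 for Ndufa9 (adjusted p = 0.12). With the called ones, 15 of the 32 subunits lay wholly below sham (46.9%), against 10.9% of all genes and 19.1% of genes above the median level. The highest complex I difference was that of Ndufa11, a membrane-arm subunit, at 7.42, 7.40, 7.43 and 7.16 in SCI and 7.17, 7.11, 7.08 and 7.20 in sham. The other 3 SCI arrays were above all sham arrays and SCI 4 was within their range (0.21 ± 0.10, adjusted p = 0.18). Ndufv3 showed how far a choice of probe set can matter, with 0.06 for the probe set used and -0.25 for the other.

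Assembly factors build complex I and are not part of the finished enzyme. Of the 8 that match the rule 2 fell (25.0%, against 7.06% of all genes). Ndufaf5, which hydroxylates a residue of Ndufs7 early in assembly, measured 5.40, 5.14, 5.56 and 5.32 in SCI and 5.75, 5.80, 6.06 and 6.05 in sham, without overlap. It fell by 0.56 ± 0.12 (SE, adjusted p = 0.011), to 67.7% of the sham signal. Ndufaf2, a late assembly factor related to Ndufa12, measured 3.34, 3.19, 3.46 and 3.31 in SCI and 3.72, 4.01, 3.57 and 4.07 in sham. It fell by 0.52 ± 0.13 (SE, adjusted p = 0.020), again without overlap, at a level where the array compresses differences. All 8 differences were below 0, with a median of -0.16.

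**Figure D2:**
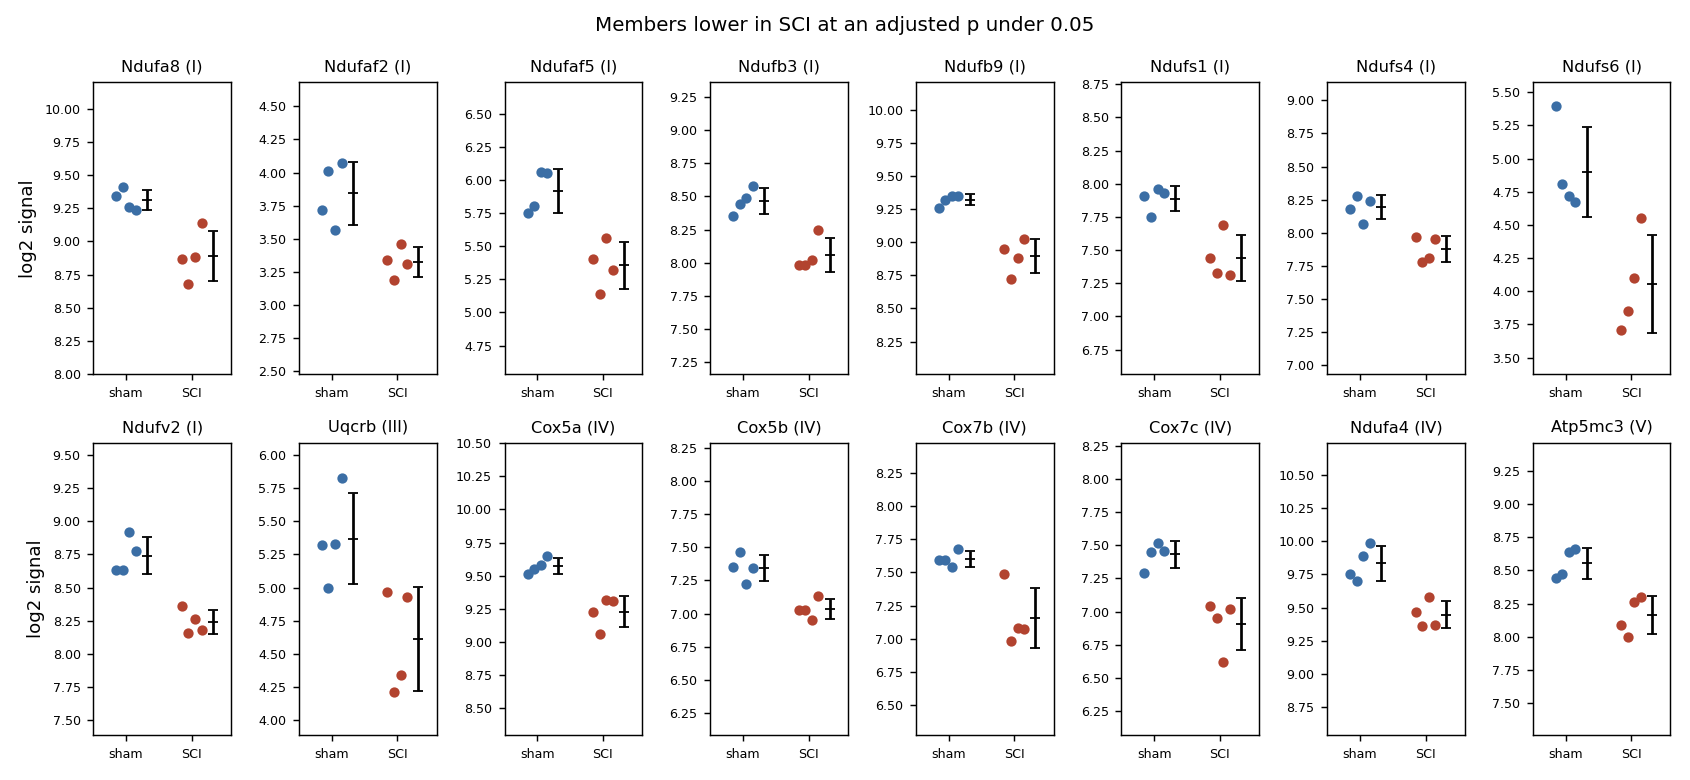
Log2 signal in each of the 4 sham (blue) and 4 SCI (red) arrays for the 16 members that fell, with the mean and SD of each group beside the points and the complex in brackets. All panels span the same number of log2 units but start at different levels, and in no panel do the groups overlap.

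Complex II links the chain to the citric acid cycle and pumps no protons. None of its 4 subunits passed the test, and the subunit means overlapped, at 7.94, 7.91, 7.86 and 8.01 in SCI and 7.98, 7.93, 8.06 and 8.05 in sham. Sdha, which holds the flavin and oxidises succinate, measured 8.79, 8.66, 8.72 and 8.93 in SCI and 8.94, 8.92, 9.04 and 8.96 in sham (-0.19 ± 0.09, adjusted p = 0.23). Sdhb, the iron-sulphur subunit, measured 7.50, 7.60, 7.50 and 7.58 against 7.64, 7.59, 7.69 and 7.60, with a difference of -0.09 ± 0.08 (adjusted p = 0.59). The membrane anchors lay on opposite sides of 0. Sdhd measured 7.20, 7.01, 7.01 and 7.22 in SCI and 7.20, 7.26, 7.41 and 7.43 in sham (-0.22 ± 0.10, adjusted p = 0.20). Sdhc measured 8.27, 8.37, 8.20 and 8.29 in SCI and 8.14, 7.96, 8.11 and 8.23 in sham, with SCI 3 below sham 4 (0.17 ± 0.09, adjusted p = 0.28). With 4 genes in complex II, its difference from the other complexes was not tested.

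Complex III passes electrons from ubiquinol to cytochrome c. All 9 members had differences below 0, with a median of -0.19. Its 7 subunits were all above the median level of all genes. Of these 7, 1 fell (14.3%, against 7.06% of all genes and 12.5% of genes above that level). Uqcrb, a small subunit near the ubiquinone site, measured 4.97, 4.21, 4.34 and 4.93 in SCI and 5.32, 5.00, 5.33 and 5.83 in sham. SCI 1 lay just under sham 2 and the arrays of each group were widely spaced, and Uqcrb fell by 0.76 ± 0.21 (SE, adjusted p = 0.037), to 59.2% of sham. Its call was kept in 3 of the 8 fits with 1 array left out. The core subunits were closer to sham, with Uqcrc1 at 7.03, 7.06, 7.26 and 7.26 in SCI and 7.42, 7.44, 7.28 and 7.28 in sham (-0.20 ± 0.10, adjusted p = 0.22). Uqcrc2 measured 8.47, 8.44, 8.44 and 8.73 in SCI and 8.83, 8.60, 8.80 and 8.89 in sham (-0.26 ± 0.11, adjusted p = 0.14), and SCI 4 alone reached the sham range. Uqcrfs1, the Rieske iron-sulphur protein, measured 5.95, 5.53, 5.66 and 5.81 against 5.88, 5.95, 5.94 and 5.95 (-0.19 ± 0.11, adjusted p = 0.29).

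**Figure D3:**
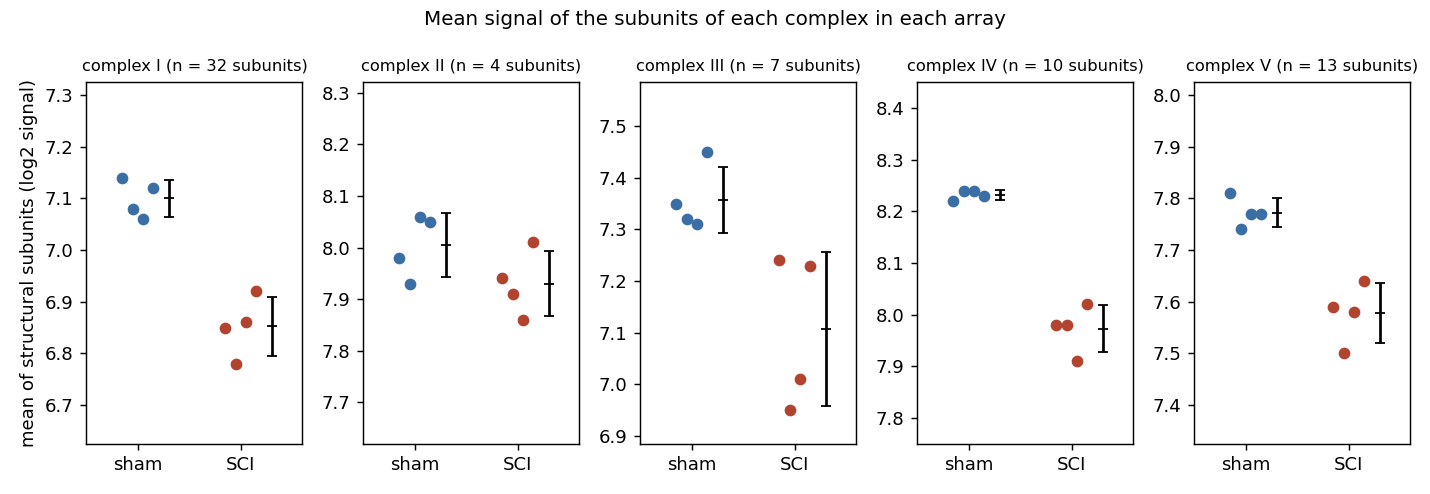
Mean log2 signal of the structural subunits of each complex (y axis, panels start at different levels and span the same number of log2 units) in each of the 4 sham and 4 SCI arrays, with the mean and SD of each group. The groups overlap in complex II only, and complex IV has the tightest sham arrays, from 8.22 to 8.24.

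Complex IV, cytochrome c oxidase, held 2 kinds of member whose medians lay on opposite sides of 0. Of the 10 common subunits 5 fell, 9 differences were below 0 and the median was -0.29, whereas 0 of the 7 tissue-restricted forms passed the test, 6 differences were above 0 and the median was 0.13. With 1 array left out the count of common subunits called lower was 1 (without SCI 2, sham 3 or sham 4), 2 (without SCI 1, sham 1 or sham 2) or 3 (without SCI 3 or SCI 4). In these fits 4.29% (without SCI 2) to 7.06% (without SCI 4) of all genes were called lower. The means of the common subunits were 7.98, 7.98, 7.91 and 8.02 in SCI and 8.22, 8.24, 8.24 and 8.23 in sham, without overlap. The means of the restricted forms were 3.38, 3.57, 3.58 and 3.41 in SCI and 3.37, 3.47, 3.29 and 3.26 in sham, and overlapped. Under the 3 scalings tried (as deposited, centred and quantile) the median of the restricted forms was 0.13, 0.08 and 0.11, and with 1 array left out it ran from 0.06 (without SCI 2) to 0.24 (without SCI 4). Of the 7 restricted forms, Cox6a2 alone had a mean level above the median of all genes, and no detection calls were used.

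Cox7c, a small membrane subunit, had the smallest p of complex IV, with 7.04, 6.95, 6.62 and 7.02 in SCI and 7.29, 7.45, 7.52 and 7.46 in sham. SCI 3 was the lowest array and none reached the sham range, and Cox7c fell by 0.52 ± 0.11 (SE, adjusted p = 0.012), to 69.6% of sham. Ndufa4, named after complex I but a subunit of complex IV, measured 9.47, 9.36, 9.58 and 9.37 in SCI and 9.75, 9.70, 9.89 and 9.99 in sham and fell by 0.38 ± 0.10 (SE, adjusted p = 0.029). Cox7b, a small subunit encoded on the X chromosome, measured 7.49, 6.98, 7.08 and 7.07 in SCI and 7.59, 7.59, 7.54 and 7.68 in sham. SCI 1 lay close to the sham arrays, and Cox7b fell by 0.45 ± 0.12 (SE, adjusted p = 0.030).

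Cox5a, a matrix-side subunit that binds a thyroid hormone metabolite, measured 9.23, 9.06, 9.32 and 9.31 in SCI and 9.51, 9.55, 9.58 and 9.65 in sham. It fell by 0.34 ± 0.09 (SE, adjusted p = 0.036), and its other probe sets differed by -0.34 (a set with the same values on every array) and -0.32. Cox5b, the zinc-binding subunit whose promoter is printed above, measured 7.03, 7.03, 6.95 and 7.13 in SCI and 7.35, 7.46, 7.22 and 7.34 in sham, and fell by 0.31 ± 0.09 (SE, adjusted p = 0.048). Its call was kept in 1 of the 8 fits with 1 array left out. Cox4i1, the regulatory subunit that binds ATP, measured 7.98, 8.05, 8.06 and 8.22 in SCI and 8.30, 8.44, 8.34 and 8.31 in sham, all SCI arrays below all sham arrays, and missed the threshold (-0.27 ± 0.09, adjusted p = 0.078). Cox6a1 also lay wholly below sham (-0.11 ± 0.08, adjusted p = 0.45). Cox6b1 (-0.08, adjusted p = 0.69) and Cox8a (0.07, adjusted p = 0.71) overlapped between the groups.

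Among the restricted forms, Ndufa4l2, a paralogue of Ndufa4 that is induced by low oxygen in other cells, measured 3.70, 3.92, 4.08 and 3.59 in SCI and 3.73, 3.03, 3.37 and 3.32 in sham. Sham 1 fell within the SCI range, and the difference of 0.46 ± 0.16 did not pass the test (adjusted p = 0.079). With 1 array left out the adjusted p ran from 0.029 (without sham 1) to 0.19. Cox6a2, the heart and skeletal muscle form, measured 5.17, 5.56, 5.22 and 5.47 in SCI and 4.93, 5.22, 5.00 and 4.75 in sham. Sham 2 lay within the SCI range, and the difference of 0.38 ± 0.13 missed the threshold (adjusted p = 0.077). With 1 array left out the adjusted p ran from 0.046 (without sham 2) to 0.19. Of 9 skeletal muscle genes, all with mean levels below the median of all genes (2.63 to 3.91), 0 passed the test and the median difference was 0.01. A part of muscle tissue in the Cox6a2 values was not tested. Cox4i2 (0.05, adjusted p = 0.84), Cox6b2 (0.17, adjusted p = 0.62) and Cox8b (0.04, adjusted p = 0.88) did not pass it.

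For 6 pairs of a restricted and a common form, the log2 ratio was taken within each array, and its shift from sham to SCI is the difference between the paired genes' own changes. The pairs were chosen with the values known, so the shifts are a description without a test. The shift was 0.85 ± 0.18 (SE, n = 4 and 4) for Ndufa4l2 over Ndufa4 and 0.50 ± 0.13 for Cox6a2 over Cox6a1, and in these 2 pairs the ratios of the groups did not overlap. It was 0.57 ± 0.28 for Cox7b2 over Cox7b, 0.32 ± 0.12 for Cox4i2 over Cox4i1, 0.25 ± 0.23 for Cox6b2 over Cox6b1 and -0.03 ± 0.11 for Cox8b over Cox8a, all with overlap.

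**Figure D4:**
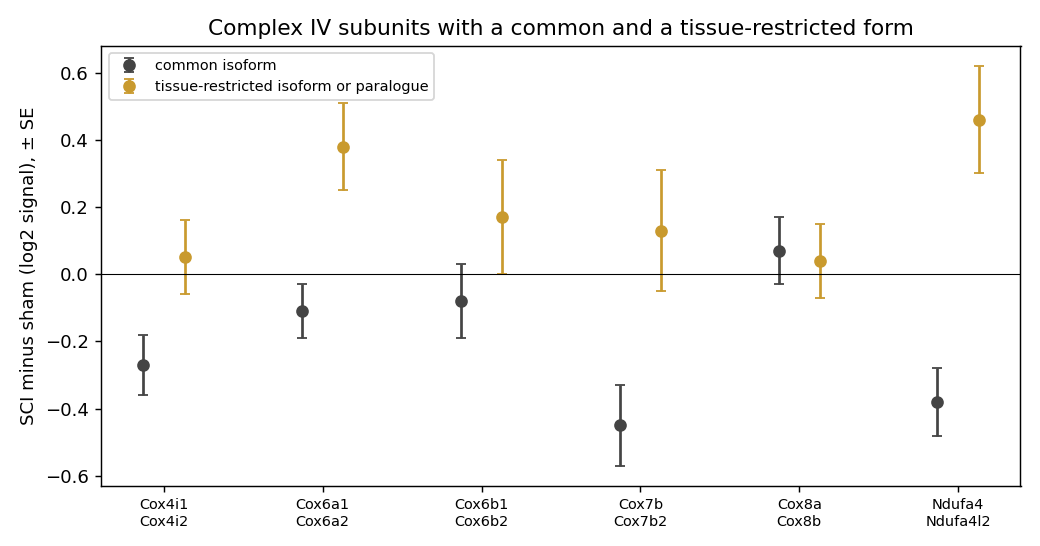
Difference between SCI and sham in log2 signal (y axis, ± SE of the limma fit) for 6 complex IV subunits with a common form (dark) and a tissue-restricted form or paralogue (yellow), named on the x axis with the common form above. The restricted form has the higher difference in 5 of the 6 pairs; the Cox8 pair is the exception.

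Complex V, the ATP synthase, had 1 call among 20 members and a median of -0.19, and its 13 subunits had a median of -0.20. The subunit means were 7.59, 7.50, 7.58 and 7.64 in SCI and 7.81, 7.74, 7.77 and 7.77 in sham, so the array means did not overlap. The share called was 5.0% of its members and 7.7% of its subunits, against 7.06% of all genes and 12.5% of genes above the median level. Of the 13 subunits 5 lay wholly below sham (38.5%), against 10.9% of all genes and 19.1% of genes above the median level. Atp5mc3, a gene of the c ring that turns in the membrane, measured 8.09, 8.00, 8.26 and 8.30 in SCI and 8.44, 8.47, 8.64 and 8.66 in sham, without overlap. It fell by 0.39 ± 0.11 (SE, adjusted p = 0.032), and its call was kept in 4 of the 8 fits with 1 array left out. Atp5mc1, which encodes the same mature c subunit, measured 6.88, 6.20, 6.50 and 6.97 against 7.01, 6.87, 7.02 and 6.86 (-0.31 ± 0.16, adjusted p = 0.26), with SCI 1 and SCI 4 within the sham range.

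The catalytic head was closer to sham but tight. Atp5f1a, the alpha subunit, measured 9.53, 9.38, 9.55 and 9.57 in SCI and 9.65, 9.71, 9.73 and 9.74 in sham (-0.20 ± 0.09, adjusted p = 0.18). Atp5f1b, the catalytic beta subunit, measured 9.15, 9.07, 9.21 and 9.29 in SCI and 9.31, 9.30, 9.44 and 9.42 in sham (-0.19 ± 0.09, adjusted p = 0.23). For both genes every SCI array lay below every sham array, as it also did for Atp5pb and Atp5pf of the peripheral stalk, without a pass of the test. Atp5f1d, the delta subunit of the head, lay at 9.05, 9.08, 9.07 and 9.02 against 9.08, 9.03, 8.99 and 9.09, with full overlap. The inhibitor Atp5if1, which blocks ATP hydrolysis when the gradient is lost, differed by -0.16 (adjusted p = 0.31).

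The order of the SCI arrays was shared by the mean of the 66 structural subunits and by marker genes of neurons and myelin. In the sham arrays the neuronal markers ran in another order, while the myelin markers had the same lowest array as the subunits. Among SCI arrays, SCI 2 was the lowest of its group for 25 of the 66 subunits and SCI 4 the highest for 29. The order of the SCI arrays by subunit mean was SCI 2, SCI 3, SCI 1 and SCI 4, from 7.19 to 7.32. Pan-neuronal markers gave the same order, at 8.40, 8.53, 8.58 and 8.67, and so did oligodendrocyte and myelin markers, at 8.80, 8.83, 8.92 and 9.03. Taken by complex, only the subunits of complex V gave this order, and SCI 3 was lowest in complexes II (7.86) and IV (7.91). Macrophage and microglia markers were highest in SCI 2 (8.56) and lowest in SCI 4 (8.12). Among sham arrays, the subunit mean was lowest in sham 2 (7.46) and highest in sham 1 and sham 4 (7.51). Neuronal markers were instead highest in sham 2 (9.14) and lowest in sham 1 (9.01). Myelin markers were lowest in sham 2 (9.45) and highest in sham 4 (9.51). Each order rests on 4 arrays that share their RNA between the lists, and it is given as a description.

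Both lists of cord cells had array means of 8.40 or more in all 8 arrays, where the median level of all genes was 4.74. Pan-neuronal markers fell in 19 of 20 genes, with a median of -0.52, and their summed linear signal ran from 11820 to 14415 in SCI and from 17720 to 19760 in sham. Oligodendrocyte and myelin markers fell in 12 of 15 genes (median -0.59, sums of 8329 to 9778 against 13269 to 14048). Macrophage and microglia markers rose in 20 of 20 (median 1.61, sums of 8750 to 11468 against 2894 to 3585), and meningeal and fibroblast markers rose in 7 of 10 (median 0.85). Astrocyte markers had 2 genes higher and 1 lower of 11 (median 0.01), endothelial and mural markers 1 higher of 9 (median -0.13), Schwann cell markers 2 higher and 1 lower of 7 (median 0.53) and ependymal markers 2 higher of 3 (median 0.66). The 4 genes of brown fat and blood gave 0 calls. The subunit median of -0.22 was smaller in size than those of the neuronal and myelin lists. Without SCI 3, sham 1 and sham 2 the counts were 2 of 20 for neurons, 7 of 15 for myelin, 17 of 20 for macrophages and 2 of 10 for meninges, and with the title number as a covariate the neuronal count was 9. The part of these cell type differences in the results on the members was not tested.

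**Figure D5:**
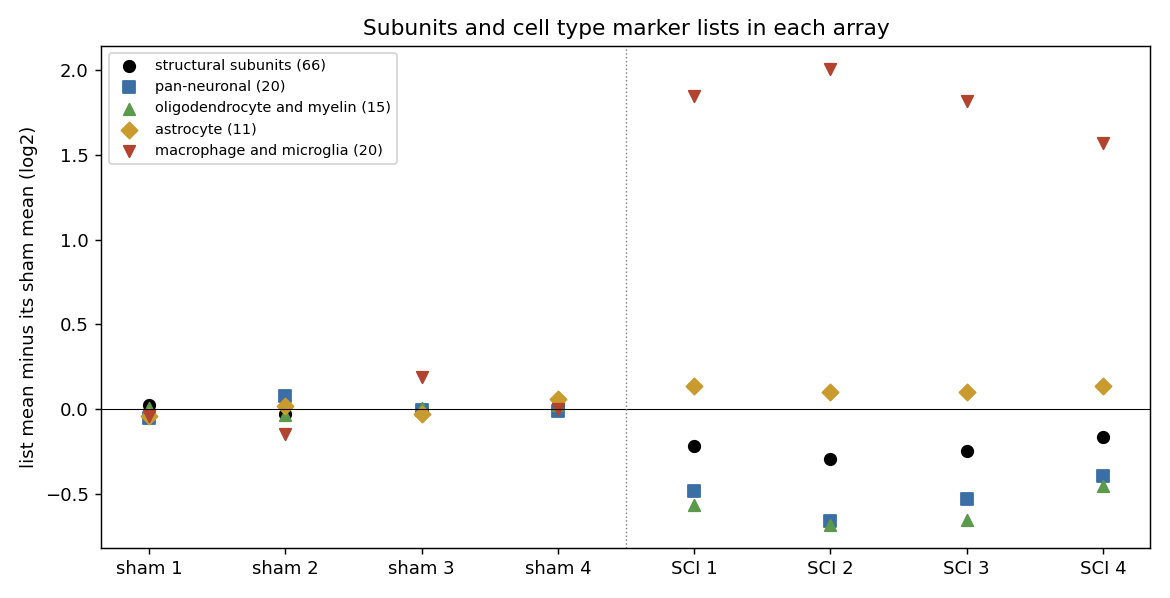
Mean log2 signal of the 66 structural subunits and of 4 marker lists in each array, minus the list's mean over the sham arrays (y axis), for sham arrays 1 to 4 and SCI arrays 1 to 4 (x axis). Subunits, neuronal and myelin markers lie below 0 in all SCI arrays, lowest in SCI 2, and macrophage markers lie far above 0.

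Other genes around the chain were read from lists in the same fit. The mitochondrially encoded subunits COX1, COX2 and COX3, the catalytic core of complex IV, gave 0 calls of 3 and overlapped between the groups (-0.08, -0.20 and -0.07, adjusted p of 0.62, 0.29 and 0.65). Of 29 assembly factors outside the symbol rule 5 fell (17.2%, against 7.06% of all genes), 28 differences were below 0 and the median was -0.14. Those that fell were Cox19 (-0.87, adjusted p = 0.0075) and Cox11 (-0.49, adjusted p = 0.016), which are linked to copper delivery to complex IV, Tmem126b of complex I (-0.56, adjusted p = 0.0081), Ttc19 of complex III (-0.48, adjusted p = 0.012) and Atpaf1 of complex V (-0.53, adjusted p = 0.0065).

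Of 11 carriers and pores, all above the median level, 4 fell, with a median of -0.16. This share of 36.4% stands against 7.06% of all genes and 12.5% of genes above that level. Ckmt1, the mitochondrial creatine kinase, measured -0.71 (adjusted p = 0.0026), Vdac3, an outer membrane pore, -0.42 (adjusted p = 0.013), the ATP/ADP carrier Slc25a4 -0.42 (adjusted p = 0.019), and cytochrome c, Cycs, -0.47 (adjusted p = 0.047). Of 17 genes of the citric acid cycle and pyruvate dehydrogenase, also all above that level, 4 fell (23.5%, against the same shares). In this list 1 gene rose, and the median was -0.20. Those that fell were Sucla2 (-0.56, adjusted p = 0.0046), Idh3a (-0.50, adjusted p = 0.0070), Dld (-0.43, adjusted p = 0.026) and Dlat (-0.42, adjusted p = 0.032). Idh2, the NADP-dependent isocitrate dehydrogenase, rose by 0.43 (adjusted p = 0.017), with all SCI arrays above all sham arrays.

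Of 15 regulators of mitochondrial biogenesis 1 fell (6.7%, against 7.06% of all genes) and 0 rose, with a median of -0.01. Esrrg, the oestrogen-related receptor gamma, measured 5.99, 5.72, 5.80 and 5.71 in SCI and 6.67, 6.42, 6.36 and 6.46 in sham and fell by 0.67 ± 0.11 (SE, adjusted p = 0.0023). The coactivators Ppargc1a (-0.32, adjusted p = 0.11) and Ppargc1b (0.53, adjusted p = 0.058) lay on opposite sides of 0 without passing the test. Gabpa measured 0.29 (adjusted p = 0.083), and Nrf1 (0.04, adjusted p = 0.86) and Yy1 (0.06, adjusted p = 0.76) overlapped between the groups. Of 72 mitochondrial ribosome genes, a list added after the values were seen, 3 fell and 0 rose, and the median was -0.10. The share that fell was 4.2%, below the 7.06% of all genes.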

How the data were processed

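Messenger RNA of thoracic spinal cord was measured on 8 Affymetrix Rat Gene 2.0 ST arrays, 4 SCI and 4 sham, grouped by the labels. The authors deposited log2 values from RMA in Affymetrix Expression Console, per the submitters' processing notes, with versions, settings and build not given in the sources used here. RMA subtracts background, equalises the distributions of arrays and combines the probes of a set, and it compresses differences of dim probe sets. Array medians over all 36685 probe sets were 3.73 to 3.81. Correlations across genes, which are not independent replicates, were 0.986 to 0.991 within and 0.971 to 0.983 between groups.

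The platform annotation gave 18511 probe sets 1 symbol, 575 several and 17599 none here. Of repeated symbols (291 genes), the probe set with the highest mean was kept. SCI was compared with sham with limma's lmFit and eBayes (version 3.58.1, R 4.3.3; no covariate), with Benjamini-Hochberg adjustment over 18166 genes and calls at an adjusted p under 0.05. The code was tested on simulated data. Replicates are numbered in list order and pair no samples. The number of arrays limits the precision.

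Members and lists were chosen with earlier results of these data known. Described in full were up to 6 called members with the smallest p in each complex and a set list of catalytic and isoform subunits; of other lists up to 3 genes by p, and further genes there were named after their values were seen. Alternatives were single arrays and 3 arrays left out, array centring, quantile normalization, the title number as covariate, mean of probe sets, genes above the median level, an eBayes trend with robust settings, array weights, and structural subunits alone. Promoter windows were RefSeq entries (GRCr8) matched by symbol; symbols with several entries were left out.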

Additional observations from a re-analysis of the deposited data

Results flagged for a closer look

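Of 82 sets of 4 arrays examined, 4 held 1 array far from the other 3, and chance gives about 1 in 20. Cox6b1 was 7.22 in SCI 3, where the other SCI arrays lay at 7.51 to 7.56. Ndufb3 was 8.25 in SCI 4, against 7.98 to 8.02 in the others. Uqcrc2 was 8.73 in SCI 4, against 8.44 to 8.47. Uqcrfs1 was 5.88 in sham 1, against 5.94 to 5.95 in the other sham arrays.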

How the results depend on the processing

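Of the 16 alternatives to the fit reported, the count of members called lower was 5 of 100 (against 1.56% of all genes) without SCI 3, sham 1 and sham 2, an earlier look having set these arrays apart, and 0 (against 2.99%) with the title number as a covariate. It was 26 of 75 among genes above the median level alone, where 1814 of 9083 such genes were called, and 28 (against 9.64%) with the trend and robust settings. With 1 array left out it ran from 4 to 17. Members called higher numbered 1 among genes above the median level (Cox6a2) and 0 to 1 with 1 array left out, the gene being Atp5mc1l2, Ndufa4l2 or Cox6a2. The median of complex IV, -0.11, was -0.03 without the 3 arrays, -0.17 with arrays centred on their medians, -0.24 among genes above the median level and -0.13 to -0.07 with 1 array left out. The median of complex V was -0.24 with centring, which moved the median of all genes to -0.06. The medians of complexes I, II and III moved by less than the spread between replicates in the alternatives run. RMA compresses differences of dim genes. No paired analysis was possible because the title numbers of the groups are not shared and the replicate numbers follow list order.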
